A study of Mus musculus with 2 samples.

Results

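The Iroquois homeobox genes Irx1, Irx2, Irx3, Irx4, Irx5 and Irx6 lie in 2 clusters of 3 genes in the mouse genome. Cluster A holds Irx1, Irx2 and Irx4 on chromosome 13, and cluster B holds Irx3, Irx5 and Irx6 on chromosome 8. All 6 were found in a RefSeq gene table of 21631 protein-coding genes (GRCm38.p6, the assembly that mm10 names). Their chromatin contacts were read from a list of 4982 loops made by Micro-C, which maps contacts genome-wide after micrococcal nuclease has cut crosslinked chromatin. The cells were V6.5, a male line of mouse embryonic stem cells grown on gelatin, which are pluripotent. Both samples (siControl, replicates 1 and 2) were wild-type cells given 50 nM of the control reagent siGLO and harvested at 48 hours, so they form 1 group with no second condition. The list gives 1 set of values for the 2 samples and none per replicate, and the read depth is unknown. No spread between replicates could be measured, and no difference below was tested. Nothing here measures expression or markers, so the pluripotent state of the cells was not checked. A loop is a pair of intervals, its anchors, that the authors' caller listed as being in contact more often than their surroundings.

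A loop was taken as a member where an anchor lay in a cluster or within 500 kb of it. This gave 10 of the 4982 loops, 4 for cluster A and 6 for cluster B. The clusters were chosen with the loop between Irx3 and Irx5 already known, and the loops were chosen by where their anchors lie, so the counts and values below describe the members and support no test. All coordinates are in mm10 and 1-based. Gene records in that table have outer bounds but no exons, so whether an anchor inside a gene is exonic or intronic was not read.

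Irx genes encode transcription factors of the TALE class of homeodomain proteins and act in patterning of the neural tube, heart, limb and other organs. The clusters arose by duplication of an ancestral cluster, so that Irx1 and Irx3, Irx2 and Irx5, and Irx4 and Irx6 are paired as paralogs. In each cluster long stretches with no protein-coding genes, rich in enhancers, separate the genes, and contacts between Irx promoters have been described in vertebrate embryos. In embryonic stem cells such developmental regulators are typically silent and carry Polycomb marks.

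In both clusters neighbouring Irx genes were joined by a called loop. Cluster A had a chain of 2 loops, from Irx1 to Irx2 and from Irx2 to Irx4. Cluster B had 1, from Irx3 to Irx5. The Irx1 to Irx2 loop counts by any overlap of the gene records, since neither end of Irx2 lay in its anchor. The other 2 also count by gene ends. The paralogous loops Irx1 to Irx2 and Irx3 to Irx5 spanned 665 and 555 kb, with peak scores of 9.47 and 6.67. The Irx2 to Irx4 loop spanned 630 kb with a peak score of 4.69, and no loop was listed between its paralogs Irx5 and Irx6. The peak score is taken to be the caller's own number, with no unit. Its meaning was inferred, as no label states it.

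**Figure D1:**
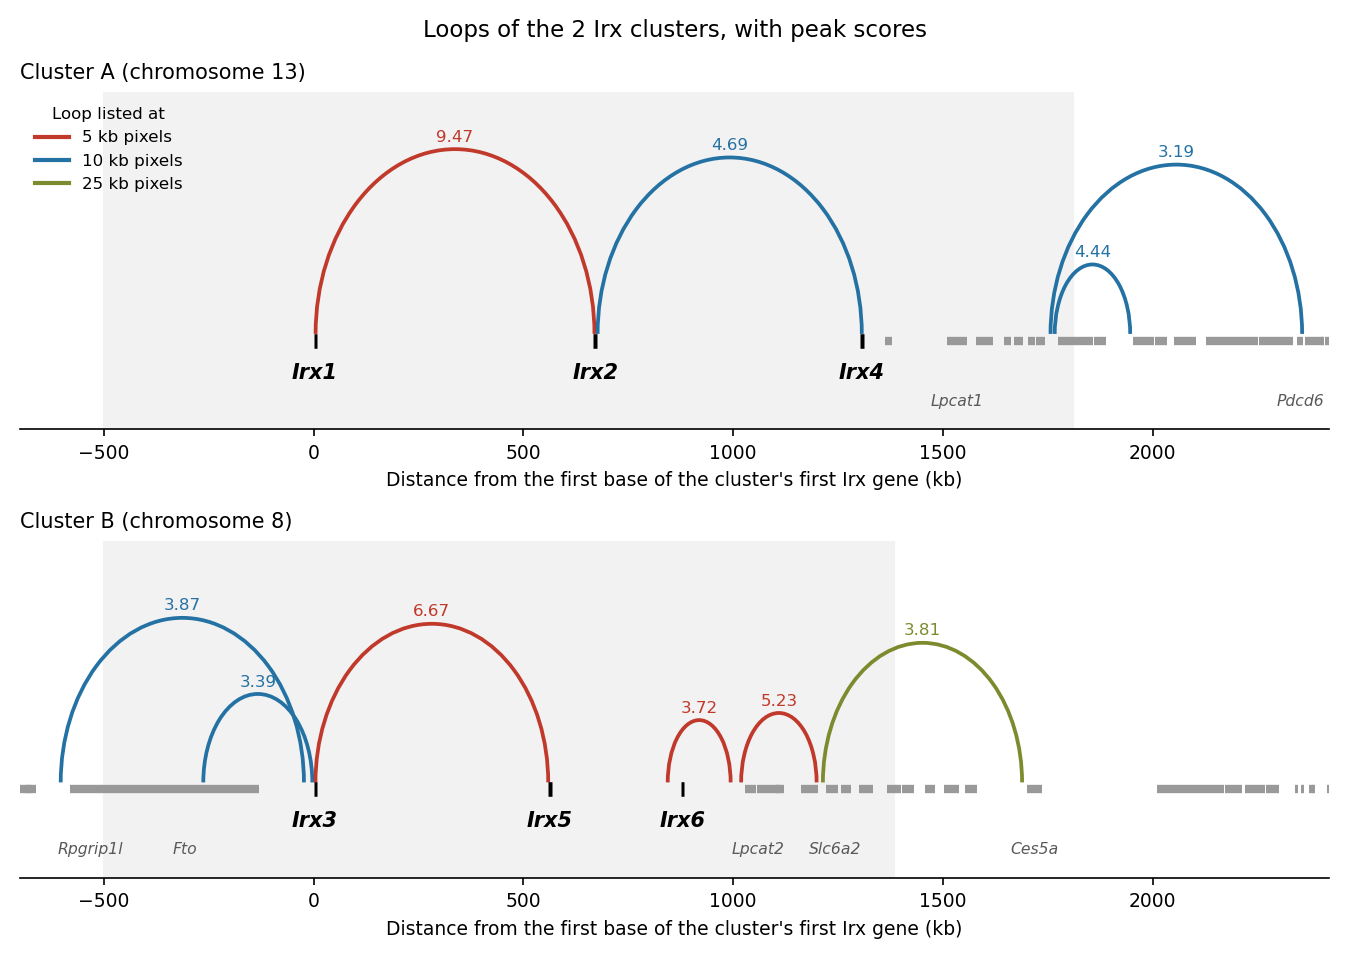
Loops of cluster A (top) and cluster B (bottom) against the distance in kb from the first base of Irx1 or Irx3. Arcs run between anchor midpoints, with height set by span and colour by pixel size, and numbers are peak scores. Black marks are Irx genes, grey bars are other protein-coding genes (some named), and shading marks each cluster with 500 kb on each side. Arcs join Irx1 to Irx2 (9.47), Irx2 to Irx4 (4.69) and Irx3 to Irx5 (6.67), and none ends at Irx6.

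The promoters of Irx2, Irx3 and Irx4 are shown because their start sites lay inside anchors of these 3 loops. Irx1, Irx5 and Irx6 had no entry in the RefSeq promoter table (GRCm38.p6). Each window runs from 250 bases before the start to 50 after it and is printed 5′ to 3′ on the strand of the gene, with CpG dinucleotides in capitals. The windows are chr13:72628570-72628869 on the plus strand for Irx2, chr8:91801605-91801904 on the minus strand for Irx3 and chr13:73260247-73260546 on the plus strand for Irx4.
Irx2: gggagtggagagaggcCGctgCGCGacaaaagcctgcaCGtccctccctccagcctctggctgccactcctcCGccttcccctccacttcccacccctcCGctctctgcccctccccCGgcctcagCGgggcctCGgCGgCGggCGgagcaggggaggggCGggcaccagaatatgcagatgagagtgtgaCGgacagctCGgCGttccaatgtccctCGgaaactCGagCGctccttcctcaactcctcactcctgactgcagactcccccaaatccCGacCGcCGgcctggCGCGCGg
Irx3: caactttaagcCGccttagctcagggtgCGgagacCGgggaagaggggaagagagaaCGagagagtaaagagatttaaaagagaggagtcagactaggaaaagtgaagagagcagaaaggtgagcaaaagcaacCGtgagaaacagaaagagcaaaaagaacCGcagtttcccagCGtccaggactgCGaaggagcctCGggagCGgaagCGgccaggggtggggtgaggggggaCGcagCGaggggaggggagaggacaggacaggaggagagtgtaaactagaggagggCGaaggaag
Irx4: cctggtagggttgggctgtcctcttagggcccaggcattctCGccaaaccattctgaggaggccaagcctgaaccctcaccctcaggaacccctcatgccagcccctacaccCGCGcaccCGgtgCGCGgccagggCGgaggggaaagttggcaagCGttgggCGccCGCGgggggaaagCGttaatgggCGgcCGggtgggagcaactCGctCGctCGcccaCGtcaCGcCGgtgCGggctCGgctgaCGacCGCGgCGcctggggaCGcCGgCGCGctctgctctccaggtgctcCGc

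The Irx2 window held 25 CpG dinucleotides and was 69.0% G or C. The Irx4 window held 31 and was 70.7% G or C, and the Irx3 window held 14 and was 56.0% G or C. Over 21045 windows of 17274 protein-coding genes the median was 13 CpG, with quartiles at 4 and 25, and the median G or C share was 56.7%. The Irx2 and Irx4 windows thus lay at or above the upper quartile of CpG, and the Irx3 window lay near the median. The ratio of observed to expected CpG was 0.723 for Irx2, 0.748 for Irx3 and 0.828 for Irx4, against a median of 0.574. CTCF is the zinc finger protein at which many loop anchors lie. Part of its core motif, AGGNGGC, searched on both strands, was found once each in the Irx3 and Irx4 windows and not in the Irx2 window. Over all windows 33.8% held it. These counts cover the printed letters and not the whole anchors.

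**Figure D2:**
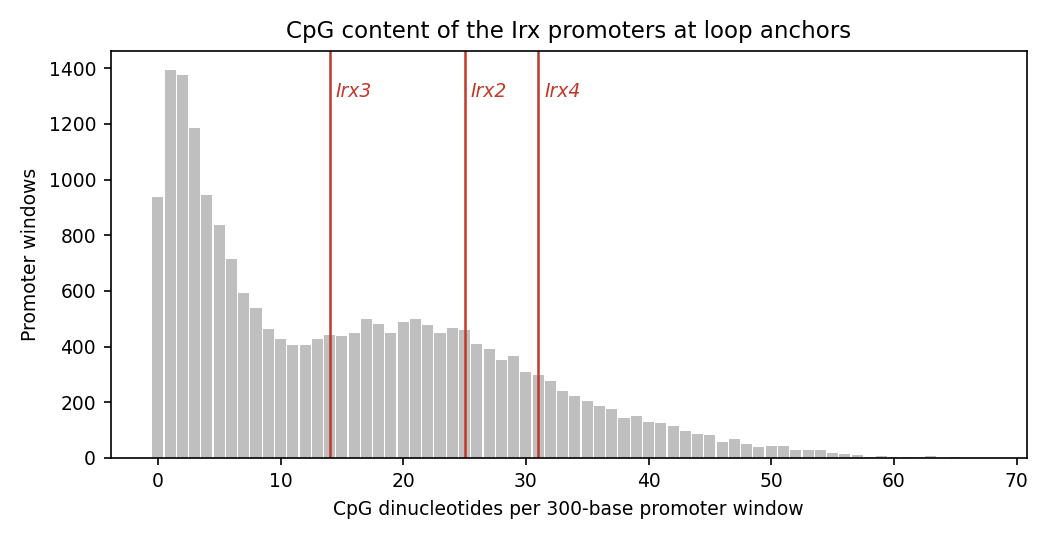
CpG dinucleotides per 300-base promoter window (x axis) against the number of windows (y axis) over 21045 windows of protein-coding genes. Red lines mark Irx3 at 14, Irx2 at 25 and Irx4 at 31 (the median window held 13).

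In cluster A, Irx1 and Irx2 were joined by a loop of 5 kb pixels, the finest size listed. Irx1 (gene ID 16371, chromosome 13, 71958232 to 71963723) acts in development of the heart, lung and kidney. Its upper end lay in the anchor 71960001 to 71965000. Irx2 (gene ID 16372, 72624430 to 72634196), its neighbour across a gap of 660.7 kb, met the other anchor, 72625001 to 72630000. That anchor is narrower than the Irx2 record and lies wholly inside it, so neither end of the record fell in it, but the start of Irx2 at 72628820 did. The anchor also held the upper end of the long noncoding RNA Gm20554, which lay 256 bp below the listed start of Irx2. The Irx2 record begins at 72624430, below that listed start and outside the anchor, so the records of Gm20554 and Irx2 overlap. The peak pixel of the contact map, in the authors' normalized units, was 9.13 against a mean of 3.41 in the 8 pixels around it, a ratio of 2.68.

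Its peak score and its ratio were the highest of the 10 loops. Its peak score ranked 23 of the 1265 loops of 5 kb pixels, and its ratio of peak to surrounding pixels ranked 18. Loops of 5 kb pixels are mostly short, with a median span of 190 kb, and 3.16% of them were longer than this one. Among the 74 of them that spanned 500 to 700 kb, its peak score ranked 3 and its ratio ranked 1.

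Irx2 was joined in the other direction to Irx4. Irx4 (gene ID 50916, 73259589 to 73269622) is a regulator and marker of ventricular heart muscle, and a gap of 625.4 kb separates it from Irx2. The loop was of 10 kb pixels and ran from 72630001 to 72640000, which holds the upper end of Irx2, to 73260001 to 73270000, which holds the start of Irx4 at 73260497 and the upper end of its record. Its peak pixel was 6.17 against a mean of 3.61 around it, a ratio of 1.71. The peak score of 4.69 ranked 740 of 3047 loops of 10 kb pixels, and 116 of the 429 of these that spanned 500 to 700 kb. By the ratio it ranked 235 of those 429, close to the middle. By its ratio this loop was thus an ordinary one for its pixel size and span. Its peak score lay between their median of 4.21 and upper quartile of 4.78. The loop from Irx1 ranked near the top by both measures, but among loops of 5 kb pixels.

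The anchors of both loops at Irx2 abut without overlapping. The one that runs to Irx1 holds the start of Irx2, and the one that runs to Irx4 begins 1.18 kb beyond that start. The pixel sizes differ, so the list does not show whether the loops share 1 point on Irx2. No loop was listed directly between Irx1 and Irx4, whose records bound the cluster over 1311.4 kb.

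In cluster B, Irx3 and Irx5 were joined by a loop of 5 kb pixels. Irx3 (gene ID 16373, chromosome 8, 91798511 to 91801654), a regulator of neural tube patterning that has also been tied to body weight, lies on the minus strand. Its start at 91801654 fell in the anchor 91800001 to 91805000. Irx5 (gene ID 54352, 92357796 to 92361456), which acts in the heart and in the retina, had the lower end of its record in the anchor 92355001 to 92360000. The gap between them is 556.1 kb. The peak pixel was 8.50 against a mean of 4.68 around it, a ratio of 1.81. The peak score of 6.67 ranked 158 of 1265 loops of 5 kb pixels and 16 of the 74 of 500 to 700 kb, and the ratio ranked 36 of those 74.

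Both anchors of this loop also held the end of a long noncoding RNA. The lower end of the Irx3os record lay 1682 bp above the start of Irx3. The upper end of the record of Crnde, a noncoding neighbour of Irx5, lay 1676 bp below the Irx5 record. Strands of these noncoding RNAs were not read, so which record end is a transcript start is not given. Over the whole list 2.15% of loops had such ends at both anchors, and 23.4% at 1 or both. Of the 10 loops around the Irx clusters 3 had such an end at 1 anchor or both: those from Irx1 to Irx2, from Irx3 to Irx5 and from Fto to Irx3. The records give no reading of which transcripts are made in these cells.

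Set side by side, the paralogous loops lay closer in their peak pixels than in the pixels around them. The peak pixels were 9.13 for Irx1 to Irx2 and 8.50 for Irx3 to Irx5, both above the median of 4.90 for 5 kb pixels and of 5.78 for those of 500 to 700 kb. The surrounding means were 3.41 and 4.68. With 1 value for each loop and no replicates, whether the difference in ratio, 2.68 against 1.81, exceeds measurement error is unknown.

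**Figure D3:**
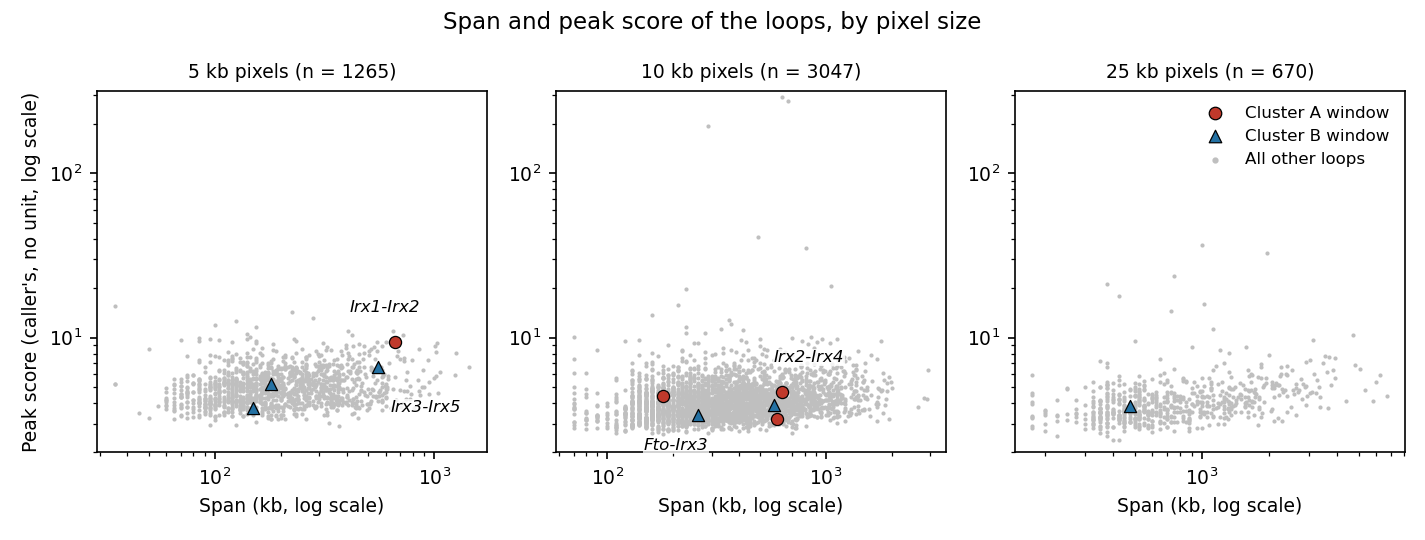
Span in kb (x axis, log scale) against the caller's peak score (y axis, log scale) for all 4982 loops, in 1 panel for each pixel size. Red circles are loops of the cluster A window and blue triangles those of cluster B, with grey points for the other loops. Irx1 to Irx2 (9.47 at 665 kb) lies near the top of the 5 kb loops of its span, Irx3 to Irx5 (6.67) in their upper part, and Irx2 to Irx4 (4.69) among the bulk of the 10 kb loops.

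Irx3 had a second loop, in the direction away from Irx5. It was of 10 kb pixels, with a span of 260 kb and a score of 3.39. One anchor, 91790001 to 91800000, held the lower end of the Irx3 record, and the start of Irx3 lay 1.65 kb beyond that anchor. The other, 91530001 to 91540000, lay inside the record of Fto (91313367 to 91668433), which encodes an RNA demethylase. It was 216.6 kb from the lower end of Fto and 128.4 kb from its upper end. Introns of FTO are known to carry enhancers that contact IRX3, and which intron this anchor meets was not read. The loop was a weak one of its kind. Its score ranked 2455 of 3047 loops of 10 kb pixels, and its peak pixel of 6.15 against a surrounding mean of 4.33 gave a ratio of 1.42, which ranked 2688. The anchor at Irx3 also held ends of the noncoding RNAs Gm36380 and Gm39222.

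A larger loop ended short of Irx3. It ran 580 kb from 91190001 to 91200000, an interval 17.0 kb below Rpgrip1l, to 91770001 to 91780000, 18.5 kb below the Irx3 record. Its span took in all of Rpgrip1l, a gene of the base of the primary cilium, and all of Fto. Its peak score was 3.87, at rank 1700 of 3047, and neither anchor held a gene end. Neither Fto nor Rpgrip1l had an end at any anchor of the list.

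Irx6 was the member with no loop. Irx6 (gene ID 64379, chromosome 8, 92674289 to 92680956), which acts in bipolar cells of the retina, met no anchor by either end or by any part of its record. Its nearest anchor was 29.3 kb below it and the next above was 109.0 kb away. These are the 2 anchors of a single loop of 5 kb pixels, 92640001 to 92645000 and 92790001 to 92795000, which enclosed Irx6 over a span of 150 kb. No other Irx gene lay wholly between the anchors of a loop. The share of all protein-coding genes that did was not computed, so this contrast has no background. The loop around Irx6 had a peak score of 3.72, at rank 1156 of 1265, and a peak pixel of 3.07 against 1.78 around it. The gap from Irx5 to Irx6 is 312.8 kb, the shortest between neighbours in either cluster. Widening every anchor by 5 or 10 kb on each side could not reach Irx6, since its nearest anchor is 29.3 kb away. That alternative therefore says nothing about a contact between Irx5 and Irx6.

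Counted over genes, 5 of the 6 Irx genes had an end at an anchor, 3 of 3 in cluster A and 2 of 3 in cluster B. The share over all 21631 protein-coding genes was 9.04%. Any overlap of the record with an anchor gave the same 5, against 17.7% of all genes. Start sites were listed for 3 Irx genes, and all 3 lay at an anchor, against 5.2% of the 17274 genes with a listed start. By gene ends Irx3 had the most loops, with 2, and the other 4 had 1 each. Over all genes 1.14% had 2 or more, 211 with the same number as Irx3 and 35 with more. By any overlap Irx2 also had 2, since its anchor toward Irx1 lies within the gene.

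Inside the clusters, the stretches between looped neighbours held no other anchor. No anchor lay wholly between Irx1 and Irx2, between Irx2 and Irx4 or between Irx3 and Irx5. These gaps hold 2, 5 and 7 records of long noncoding RNAs and no protein-coding gene. How often gaps of such length hold no anchor over the genome was not computed, so this is not shown to be particular to the clusters. Between Irx5 and Irx6 there was 1 anchor, the lower one of the loop around Irx6. All 3 loops that lay within the bounds of a cluster therefore joined Irx genes to each other.

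Loops between neighbouring genes with like names over such distances were rare in the list. Over the genome, 856 pairs of consecutive protein-coding genes were 250 to 750 kb apart, and 38 of them (4.44%) were joined by a loop whose anchors overlap both records. The 4 pairs of neighbouring Irx genes were among the 856, and 3 of the 4 were joined. Of the 856 pairs, 34 shared a symbol stem, the letters before the first digit, with predicted genes left out. A loop joined 3 of these 34 (8.82%), and they were Irx1 with Irx2, Irx2 with Irx4 and Irx3 with Irx5. The other 31 included Klf5 with Klf12, Sp4 with Sp8 and Sema3d with Sema3a. These were picked from the list after it was seen, as pairs of known regulators or guidance genes. Pairs of regulators with unlike names fall outside the 34. Pax1 with Foxa2, picked in the same way, lay 667.8 kb apart and was joined by any overlap, though not by gene ends. Loops between neighbouring regulators were thus not confined to the Irx genes. Also among the 31 were pairs of Vmn2r, Esp, Btbd35f and Scgb genes, so the 34 do not form a set of regulators like the Irx genes. With gene ends required at both anchors, 2 of the 4 Irx pairs remained joined, against 5 of 856 pairs (0.584%) and 2 of the 34 (5.88%). Irx1 with Irx2 was the pair that dropped out. The pair count was made after the Irx loops had been seen, so it describes how often such loops were listed and is no test.

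**Figure D4:**
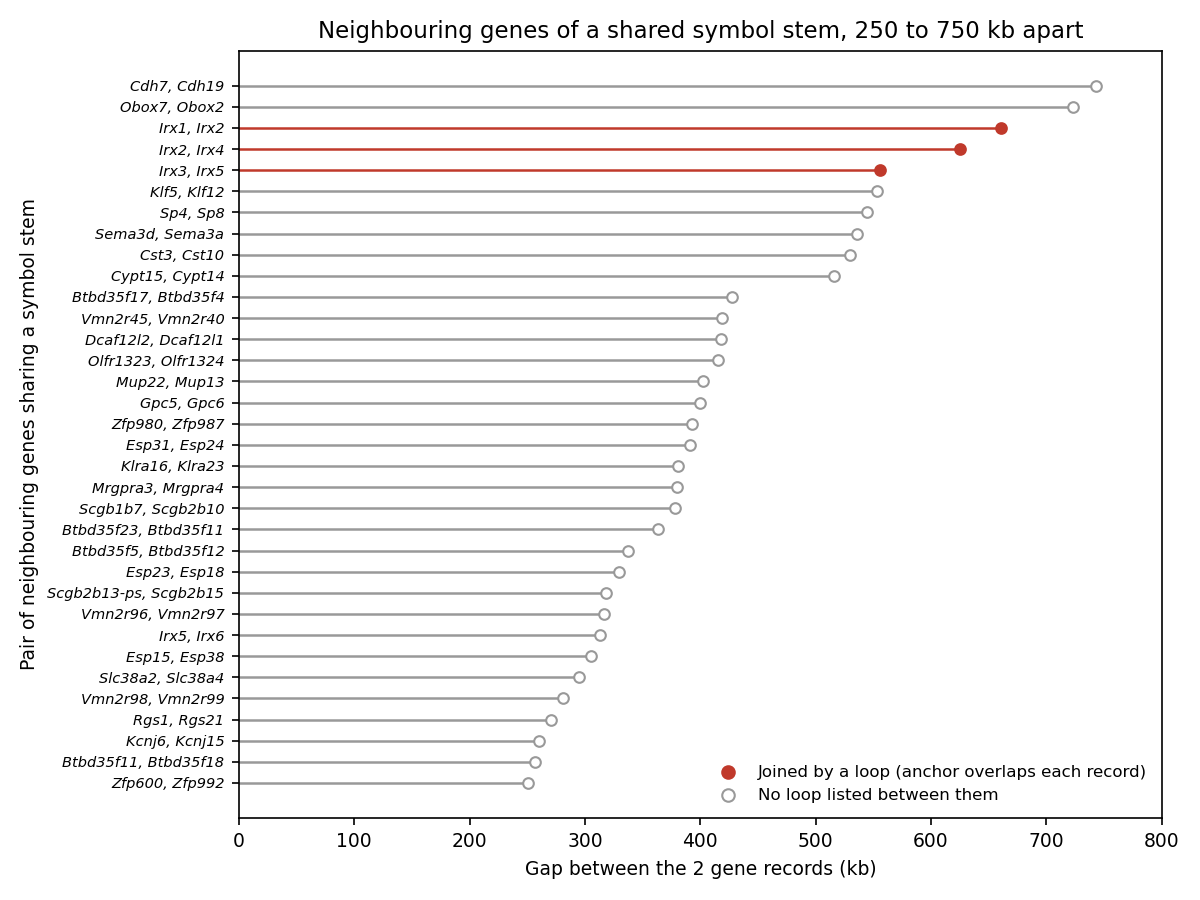
Gap in kb between the records of neighbouring protein-coding genes (x axis) for the 34 pairs (y axis) that share a symbol stem and lie 250 to 750 kb apart. Filled red points are pairs joined by a loop and open grey points pairs with none listed. The 3 filled points are Irx1 with Irx2, Irx2 with Irx4 and Irx3 with Irx5, and Irx5 with Irx6 is open at 312.8 kb.

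Ends of genes with a shared symbol stem lay at opposite anchors of 14 of the 4982 loops (0.281%), and 3 of these were around the Irx clusters: Irx2 to Irx4, Irx3 to Irx5 and a loop between the carboxylesterase genes Ces1a and Ces5a above cluster B. With any overlap of the records there were 31 such loops (0.622%), 4 of them around the Irx clusters.

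The flanks of the clusters hold paralogous genes and differed in their listed loops. Above Irx4 lie Lpcat1, an enzyme of phospholipid remodelling, and Slc6a3, the dopamine transporter, and above Irx6 lie their paralogs Lpcat2 and Slc6a2, the noradrenaline transporter. Slc6a2 met 2 loops. One, of 5 kb pixels, ran 180 kb from 92815001 to 92820000 to an anchor inside Slc6a2 (92995001 to 93000000), with a peak score of 5.23. The other, of 25 kb pixels, ran 475 kb from an anchor with the upper end of Slc6a2 and the lower end of Ces1a (93000001 to 93025000) to one with the lower end of Ces5a (93475001 to 93500000), with a peak score of 3.81. These anchors abut at 93000001. Slc6a3 met no anchor, and its nearest was 131.3 kb away. Neither Lpcat gene met one, with nearest anchors 193.6 kb from Lpcat1 and 35.3 kb from Lpcat2.

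In the flank above cluster A, 2 loops of 10 kb pixels left abutting anchors in a stretch between Slc6a19 and Slc12a7. One ran 600 kb, from 73710001 to 73720000 to an anchor with an end of Pdcd6 (74310001 to 74320000), a gene for a calcium-binding protein, and had a peak score of 3.19. The other ran 180 kb, from 73720001 to 73730000 to 73900001 to 73910000, with a peak score of 4.44 and no gene end at either anchor. On the other side of cluster A no loop lay within 500 kb of Irx1. The loop nearest to the limit from outside ended 28.2 kb beyond it (71420001 to 71430000, peak score 3.73), and those nearest from inside lay 59.6 and 49.6 kb within it, the 2 in the flank above. For cluster B the nearest outside was 363.5 kb beyond the limit, and the nearest inside lay 181.0 kb within it.

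As a whole, the windows of the clusters held numbers of loops that were common for their length. Cluster A had 4 loops in 2.31 Mb, or 1.73 per Mb, and 68.1% of 1040 autosomal tiles of that length had at least as many, with a median of 5. Cluster B had 6 in 1.88 Mb, or 3.19 per Mb, and 36.9% of 1284 tiles had at least as many, with a median of 4. The median span was 615 kb in cluster A (180 to 665 kb) and 367.5 kb in cluster B (150 to 580 kb), against 325 kb for all loops. The median peak score was 4.56 in cluster A (3.19 to 9.47) and 3.84 in cluster B (3.39 to 6.67), against 4.16 for all loops. Above the median score of their own pixel size were 3 of 4 loops in cluster A and 2 of 6 in cluster B. The ratio of peak to surrounding pixels had a median of 1.77 in each cluster, against 1.67 for all loops. Cluster A had 1 loop of 5 kb pixels and 3 of 10 kb, and cluster B had 3 of 5 kb, 2 of 10 kb and 1 of 25 kb, so the medians mix pixel sizes differently. Of the 10 loops, 6 had a protein-coding gene end at 1 anchor or both, against 33.4% of all loops, and 3 had one at both, against 5.38%. By any overlap, 5 of the 10 met protein-coding genes at both anchors, against 27.6% of all loops.

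Other genes of the TALE class were counted in the same way. Of 12 listed genes of this class, which encode cofactors of Hox proteins and related repressors, 1 had an end at an anchor, against 9.04% of all protein-coding genes. This was Meis1 (chromosome 11, 18880428 to 19019651), with 2 loops. One, of 5 kb pixels, ran 140 kb from just outside one end of the gene to the other end and had a peak score of 6.72. The other, of 10 kb pixels, ran 880 kb from the lower end of the gene, across its whole record and beyond, with a peak score of 3.97. By any overlap of the record, 4 of the 12 met an anchor, against 17.7% of all genes. By start sites 2 did, against 5.2% of genes with a listed start, and starts are not listed for all 12. Only Meis1 had an end at an anchor, so no loop could join 2 of these genes at their ends. The TALE genes therefore give no contrast with the loops between Irx genes.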

How the data were processed

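Micro-C libraries of 2 siControl samples of mouse embryonic stem cells were represented by 1 loop list. The submitters' processing notes name mm10 and Juicer 1.5.6. Not given in the sources used here are which program called the loops, with what limits, and whether replicates were pooled. The deposited scores of the caller (columns 8 and 10) and the deposited signal of the contact map (columns 11, 13 and 15) were read as given. A deposited fraction that behaves like a probability (column 9) was also read but not used further. The meanings of all these columns were inferred from the order of the columns and from the values, and the authors' normalization is unknown. The check that follows covers columns 11, 13 and 15 alone, so reading column 8 as the peak score was not checked. Column 15 minus 8/9 of column 11 equalled column 13 in each line to within 2.3e-06, as it would if column 15 is the peak pixel, column 11 its excess over the mean of its 8 neighbours and column 13 the mean of the block of 9. From these the span (midpoint to midpoint), the ratio of the peak pixel to the mean of its 8 neighbours, and ranks within a pixel size were computed (Python 3.11.15, pandas 2.3.3).

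A gene was at an anchor where either end of its RefSeq record lay inside it. Anchors and windows needed 1 bp of overlap. The functions were checked on simulated loops. The members, gene lists and comparisons were chosen with earlier results of these data known. The text names all 6 Irx genes, genes with an end at an anchor of the 10 loops, 6 flanking genes and the TALE genes at anchors. Other genes are named to place an anchor, or as examples picked after their values were seen. Alternatives were other windows, anchor widths, gene rules, pixel sizes and score limits. No p-value is given, because neither loops nor genes stand for replicates.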

Additional observations from a re-analysis of the deposited data

How the results depend on the processing

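No paired analysis was possible because both samples share 1 set of values, which also leaves no replicate to take out. Of 52 alternative values, 26 lay within 1.5 times the main value and 26 did not, many of them counts under 5. Cluster A had 4 loops, but 2 with 250 kb on each side, with no flank or with both anchors in the window, and 7 with 1000 kb. It had 1 and 0 at 5 and 25 kb pixels alone. Cluster B had 6, but 3 with no flank, 3, 2 and 1 at 5, 10 and 25 kb pixels alone, and 2 above the median score of the pixel size. Irx genes at anchors were 3 in cluster A, but 1 and 0 at 5 and 25 kb pixels alone. They were 2 in cluster B, but 1 by start sites, which are listed there for 1 gene, and 1 and 0 at 10 and 25 kb pixels alone. Loops between Irx genes of cluster A were 1 by gene ends and 2 by any overlap or with anchors widened by 5 or 10 kb. Cluster A had 1.73 loops per Mb, but 1.1 with 250 kb on each side, and 2.6 merged anchors per Mb. Cluster B had 3.19 loops and 5.31 merged anchors per Mb. Other TALE genes at anchors were 1 of 12 by gene ends, 2 by start sites or with anchors widened by 5 kb, 3 widened by 10 kb and 4 by any overlap. Over all genes the share was 9.04% by gene ends, 5.2% by listed start sites and 17.7% by any overlap. No such share is given for widened anchors, and start sites are not listed for all 12 TALE genes. The pair count with gaps of 300 to 700 kb, an alternative chosen after seeing the data, gave 26 pairs with 3 joined. The read depth is unknown, so a pair with no listed loop is not shown to lack contact.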

Other observations

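Outside the Irx clusters, 11 of the 14 loops between genes of a shared symbol stem joined other families. Hs3st3b1 and Hs3st3a1, which encode heparan sulfate sulfotransferases, were joined over 515 kb by a 5 kb pixel loop that scored 6.63, close to the 6.67 of Irx3 to Irx5. Of the 11, this was the highest score. The collagen genes Col6a6 and Col6a4 were joined over 410 kb (3.14), and the interferon genes Ifna2 and Ifna11 over 140 kb (5.15). Consecutive genes 250 to 750 kb apart and joined at their ends, apart from the Irx pairs, were Parm1 with Rchy1, Map2k6 with Kcnj16 and Gadd45g with Diras2. All of these were picked after the values were seen and are given as values with no explanation.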
